A study of Mus musculus with 12 samples.

Results

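The genes described are those for splicing factors and CLK kinases: SR proteins, hnRNP proteins, proteins that read or mark the splice sites, proteins of nuclear speckles, and the kinases that phosphorylate SR proteins. They were chosen by gene symbol, as every protein-coding gene named Srsf with a number, Clk1 to Clk4, or beginning with Hnrnp, Luc7l or U2af, together with Pnn, Pabpn1, Leng8, Rnps1, Acin1, Son, Srrm1, Srrm2, Tra2a, Tra2b, Rbm5, Rbm6, Rbm25, Rbm39 and Prpf4b. The rule found 56 of the 35275 genes in the table. The rule was written with the read counts of all 3 groups in view, so the fold changes and calls of these genes are given as a description, with no p-value of their own, and support nothing further. *Srsf12* was too low to be tested, and the other 55 genes were tested in every comparison. RNA was sequenced from kidney tissue of 12 mice of the C57BL/6J strain at 6 months of age, with 4 mice in each of 3 groups and 2 females and 2 males in each group. WT mice carried no engineered allele. RC/RC mice were homozygous for RC, a knock-in missense allele of *Pkd1* that is hypomorphic in every cell that uses the gene and gives slowly progressive cystic kidney disease. RC/RC:*Casp1*KO mice were RC/RC mice also homozygous for Del3, a TALEN-made deletion in *Casp1* that takes the codon of the active-site cysteine and a splice donor, so RC/RC is the control that shares the *Pkd1* allele. The comparisons ask how the cystic kidney differs from WT and how loss of Caspase-1, the protease of the inflammasome, alters it. In tissue RNA, fewer cells of a type and less RNA per cell cannot be told apart.

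Splicing removes introns from pre-mRNA in nuclei. SR proteins bind exonic sequences and recruit the splicing machinery, hnRNP proteins often oppose them, and CLK kinases phosphorylate the arginine-serine domains of SR proteins, which releases them from nuclear speckles, the compartments in which splicing factors are stored. Many genes of this class limit their own output by splicing in an exon that carries a stop codon, or by keeping an intron, so that part of their RNA is degraded or held in the nucleus. A count of reads per gene does not separate such transcripts from those that encode the protein.

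In the GENCODE annotation, which is of a later build and was matched by gene, 47 of the 55 tested genes (85.5%) have a transcript classed as retained intron and 48 (87.3%) one classed as nonsense-mediated decay. Among all genes tested, 53.1% and 66.6% have them. The genes here also have more annotated transcripts, with a median of 29 against 13. Among the 3022 tested genes with at least 29 transcripts, the shares are 77.1% and 92.4%. *Clk4* has 38 transcripts classed as nonsense-mediated decay among its 57, and *Srsf5* has 55 among 97.

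RefSeq promoters (GRCm38.p6, 250 bases before to 50 after a gene's start) were found for 50 of the 56 genes. They are shown for *Clk4*, *Srsf5* and *Leng8*, the CLK, SR and speckle genes that rose most from RC/RC to RC/RC:*Casp1*KO, so that the sequence in front of these starts can be read beside their levels. Capitals mark every match, on either strand, to the E-box CACGTG, the cyclic AMP response element TGACGTCA or the ETS site CCGGAAGT, none of which overlap here. The *Clk4* promoter at chr11:51262864-51263163 (plus strand) has the cyclic AMP response element, the *Srsf5* promoter at chr12:80945249-80945548 (plus strand) has the ETS letters on each strand, and the *Leng8* promoter at chr7:4136806-4137105 (plus strand) has none of these letters.
Clk4: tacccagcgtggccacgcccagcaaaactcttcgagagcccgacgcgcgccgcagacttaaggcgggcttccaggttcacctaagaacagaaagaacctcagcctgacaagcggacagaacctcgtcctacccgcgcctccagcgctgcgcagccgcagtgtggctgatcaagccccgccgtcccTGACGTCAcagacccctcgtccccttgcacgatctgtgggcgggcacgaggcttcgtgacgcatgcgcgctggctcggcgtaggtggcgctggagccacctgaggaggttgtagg
Srsf5: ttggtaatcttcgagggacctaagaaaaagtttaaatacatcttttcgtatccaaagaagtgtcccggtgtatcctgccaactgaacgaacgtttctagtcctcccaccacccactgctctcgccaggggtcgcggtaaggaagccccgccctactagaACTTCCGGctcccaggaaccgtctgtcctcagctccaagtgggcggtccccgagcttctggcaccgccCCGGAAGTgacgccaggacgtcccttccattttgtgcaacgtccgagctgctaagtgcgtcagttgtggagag
Leng8: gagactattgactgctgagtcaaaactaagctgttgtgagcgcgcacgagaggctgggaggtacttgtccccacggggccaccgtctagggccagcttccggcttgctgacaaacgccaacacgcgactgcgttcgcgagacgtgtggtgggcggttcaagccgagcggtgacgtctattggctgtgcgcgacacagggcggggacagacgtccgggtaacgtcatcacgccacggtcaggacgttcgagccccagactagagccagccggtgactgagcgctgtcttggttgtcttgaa

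The ETS letters stand in the promoters of 7 of the 50 genes (14%), namely *Acin1*, *Hnrnpd*, *Hnrnpf*, *Prpf4b*, *Srsf11*, *Srsf4* and *Srsf5*, against 4.31% of the 27025 genes with a promoter. The cyclic AMP response element is found in 2, *Clk4* and *Tra2a*, against 2.03% of all genes, and the E-box in 6 (12%) against 8.09%. The promoters of these genes are richer in G and C, with a median of 64.3% against 52.7% for all. There were 69 promoters for the 50 genes and 32851 for the 27025. No set of genes matched for G and C, promoters per gene or expression was compared. These are matches of letters and say nothing of which factor binds.

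Each WT library held 20556335 to 22656309 gene reads, each RC/RC library 18019819 to 24284831 and each RC/RC:*Casp1*KO library 18738755 to 24869454. The mice are named 2, 3, 4 and 6 in WT, RC105, RC139, RC140 and RC143 in RC/RC, and Del3_42, Del3_60, Del3_70 and Del3_105 in RC/RC:*Casp1*KO. Values per mouse are given below in that order, as CPM, a gene's reads scaled by TMM to a common library total. The WT libraries fell into 2 pairs across all genes. The chi-square per degree of freedom was 17.7 between mice 2 and 3 and 16.4 between mice 4 and 6, and 89.8 to 127 between a mouse of one pair and a mouse of the other. Pairs closer than the rest were also seen in RC/RC:*Casp1*KO (15.7 for Del3_60 and Del3_105, 31.8 for Del3_42 and Del3_70) and, less so, in RC/RC (37.2 for RC140 and RC143). These pairs followed reads of the Y chromosome. The 4 Y-linked genes *Ddx3y*, *Eif2s3y*, *Kdm5d* and *Uty* together had 0 to 9 reads in WT mice 2 and 3, RC105, RC139, Del3_60 and Del3_105, and 2475 to 4240 in the other 6 mice. *Xist*, which is transcribed from an inactive X chromosome, had at least 5280 reads in each of the former and at most 18 in each of the latter. Each group thus held 2 mice with and 2 without Y-linked reads, the numbers of males and females in the labels, although no column names a sex. Many of the genes described were low in WT mice 2 and 3 and high in WT mice 4 and 6. For the 26 genes that rose from RC/RC to RC/RC:*Casp1*KO, described below, group means were set against the range of the WT mice. The RC/RC mean lay within that range for 14 and below it for 12. The RC/RC:*Casp1*KO mean lay within it for 21 and above it for 5.

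The same mice were low or high in RNAs that stay in the nucleus. The summed level of 5 nuclear-retained long non-coding RNAs, of which *Malat1* was the most abundant, was 1047, 813, 4102 and 4002 CPM in the WT mice, 1262, 822, 651 and 879.7 in the RC/RC mice and 2463, 2415, 2744 and 2535 in the RC/RC:*Casp1*KO mice. Each RC/RC:*Casp1*KO mouse thus lay above each RC/RC mouse, WT mice 2 and 3 lay within the RC/RC range, and WT mice 4 and 6 lay above every other mouse. The 56 genes summed to 5881, 5960.4, 7399 and 7394 CPM in the WT mice, 5848, 5454, 5411 and 5524 CPM in the RC/RC mice and 7207, 6987, 7719 and 7349 CPM in the RC/RC:*Casp1*KO mice. All RC/RC:*Casp1*KO mice were above all RC/RC mice, WT mice 2 and 3 were just above the RC/RC mice, and WT mice 4 and 6 were within the RC/RC:*Casp1*KO range. Ribosomal protein mRNAs, which are short and cytoplasmic, took a share of the reads of 2.72, 2.36, 1.82 and 1.73% in the WT mice, 2.70, 3.75, 3.34 and 2.41% in the RC/RC mice and 2.21, 2.27, 2.01 and 2.17% in the RC/RC:*Casp1*KO mice, and were lowest in WT mice 4 and 6. What part the share of nuclear RNA in a library has in the results below was not tested.

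**Figure D1:**
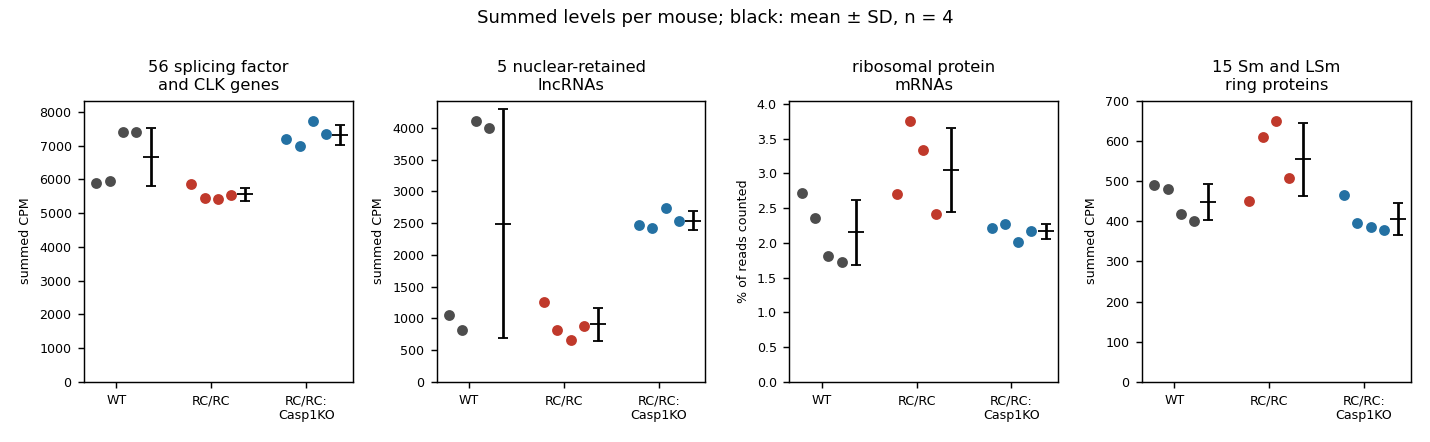
Summed levels in each mouse (dots, in the order of mouse numbers) with mean ± SD (black, n = 4), as CPM or as percent of reads. The splicing factor and CLK genes and the nuclear-retained RNAs are high in WT mice 4 and 6 and in all RC/RC:*Casp1*KO mice, and low in WT mice 2 and 3 and in all RC/RC mice; ribosomal protein mRNAs are lowest in WT mice 4 and 6, and the Sm and LSm proteins are highest in RC139 and RC140.

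From RC/RC to RC/RC:*Casp1*KO, 26 of the 55 genes passed the threshold (edgeR, adjusted p under 0.05 over all 15428 genes tested) as higher and 0 as lower, where 7.23% of all genes tested passed as higher and 4.41% as lower. At an unadjusted p under 0.05, 28 were higher and 4 lower, where 15.3% and 16.4% of all genes were. DESeq2 called 28 higher and 2 lower, against 9.61% and 7.71% of all. The median log2 fold change was 0.28 over the 55 genes and -0.027 over all genes tested. The 26 were all 4 CLK kinases, 4 of 10 tested SR proteins, 8 of 9 SR-related and speckle proteins, all 4 RBM proteins, 3 of 6 splice site factors and 3 of 20 hnRNP proteins, and neither TRA2 protein. All 4 RC/RC:*Casp1*KO mice were above all 4 RC/RC mice for 30 of the 55 genes, as for 11.8% of all genes tested, and for each of the 26. The number called rested in part on single libraries: it was 15 without RC140, 17 without Del3_60 and 16 without Del3_105, fits in which the share of all genes called in either direction went from 11.6% to 2.77%, 3.88% and 2.8%. With a term for Y-linked reads in the model the same 26 genes passed as higher and 0 as lower, against 9.85% and 7.27% of all genes. Within the 4 mice with Y-linked reads 8 passed as higher and 0 as lower, against 1.09% and 0.161%, and within the 4 without them 6 and 0, against 0.616% and 1.19%. That all 26 were higher in both sets follows from the groups not overlapping for any of them, and adds nothing. The change passed as differing between the sets (edgeR) for 0 of the 55 genes, against 0.00648% of all genes. At an unadjusted p under 0.05 it differed for 1, against 4.49% of all genes. In all of the 14 refits with other settings or with 1 mouse left out, 15 of the 26 kept their call, namely *Clk1*, *Clk4*, *Hnrnph1*, *Leng8*, *Luc7l2*, *Luc7l3*, *Pabpn1*, *Pnn*, *Rbm25*, *Rbm5*, *Son*, *Srrm2*, *Srsf11*, *Srsf2* and *Srsf5*. The other 11, *Acin1*, *Clk2*, *Clk3*, *Hnrnpdl*, *Hnrnph3*, *Luc7l*, *Prpf4b*, *Rbm39*, *Rbm6*, *Srrm1* and *Srsf6*, lost it in at least 1. Without RC140 all 11 lost it, and without Del3_105 all but *Prpf4b*. In every one of these refits all 11 stayed higher in RC/RC:*Casp1*KO, with a lowest log2 difference of 0.307, for *Rbm6*.

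**Figure D2:**
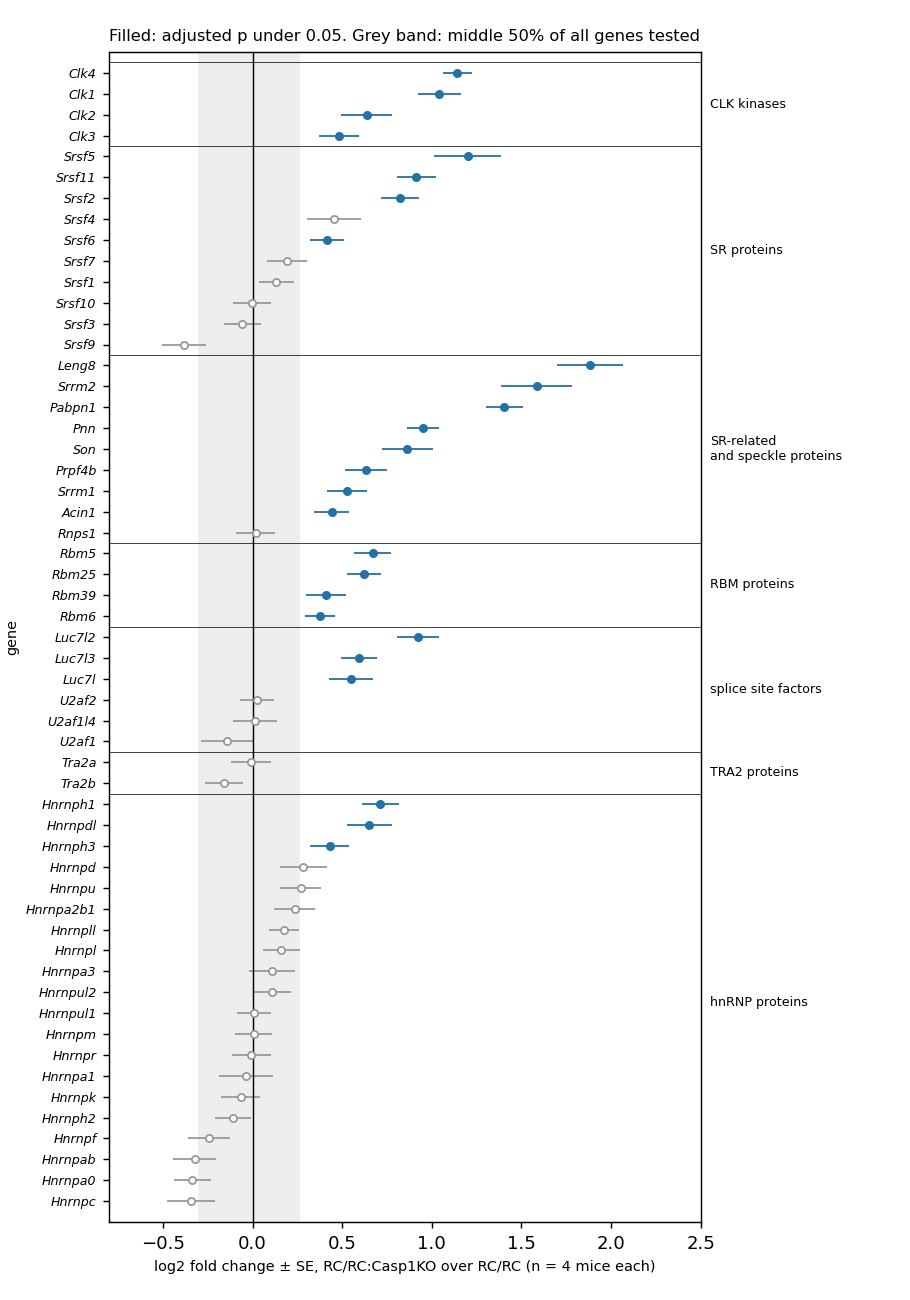
Log2 fold change ± SE from RC/RC to RC/RC:*Casp1*KO for the 55 tested genes, ordered by role, with filled points at an adjusted p under 0.05 and a grey band for the middle 50% of all genes tested. CLK kinases, speckle proteins and RBM proteins lie to the right of the band except *Rnps1*, while most hnRNP proteins lie within it.

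The WT mice were not used in that comparison. Over the 55 genes the highest mouse was a median of 1.39 times the lowest in WT, 1.21 times in RC/RC and 1.19 times in RC/RC:*Casp1*KO, where over all 14879 genes tested in every comparison it was 1.40, 1.502 and 1.37 times. WT mice 2 and 3 were the lower pair for all 26 of the genes that rose, for 38 of the 55 (69.1%) and for 31.4% of all 15243 genes tested in that group. Both mice with Y-linked reads were above both without them for 38 of the 55 genes in WT, 6 in RC/RC and 15 in RC/RC:*Casp1*KO, and below them for 10, 17 and 1. Over all genes they were above for 31.7, 19.2 and 22.6% and below for 34.9, 23.9 and 20.5%.

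**Figure D3:**
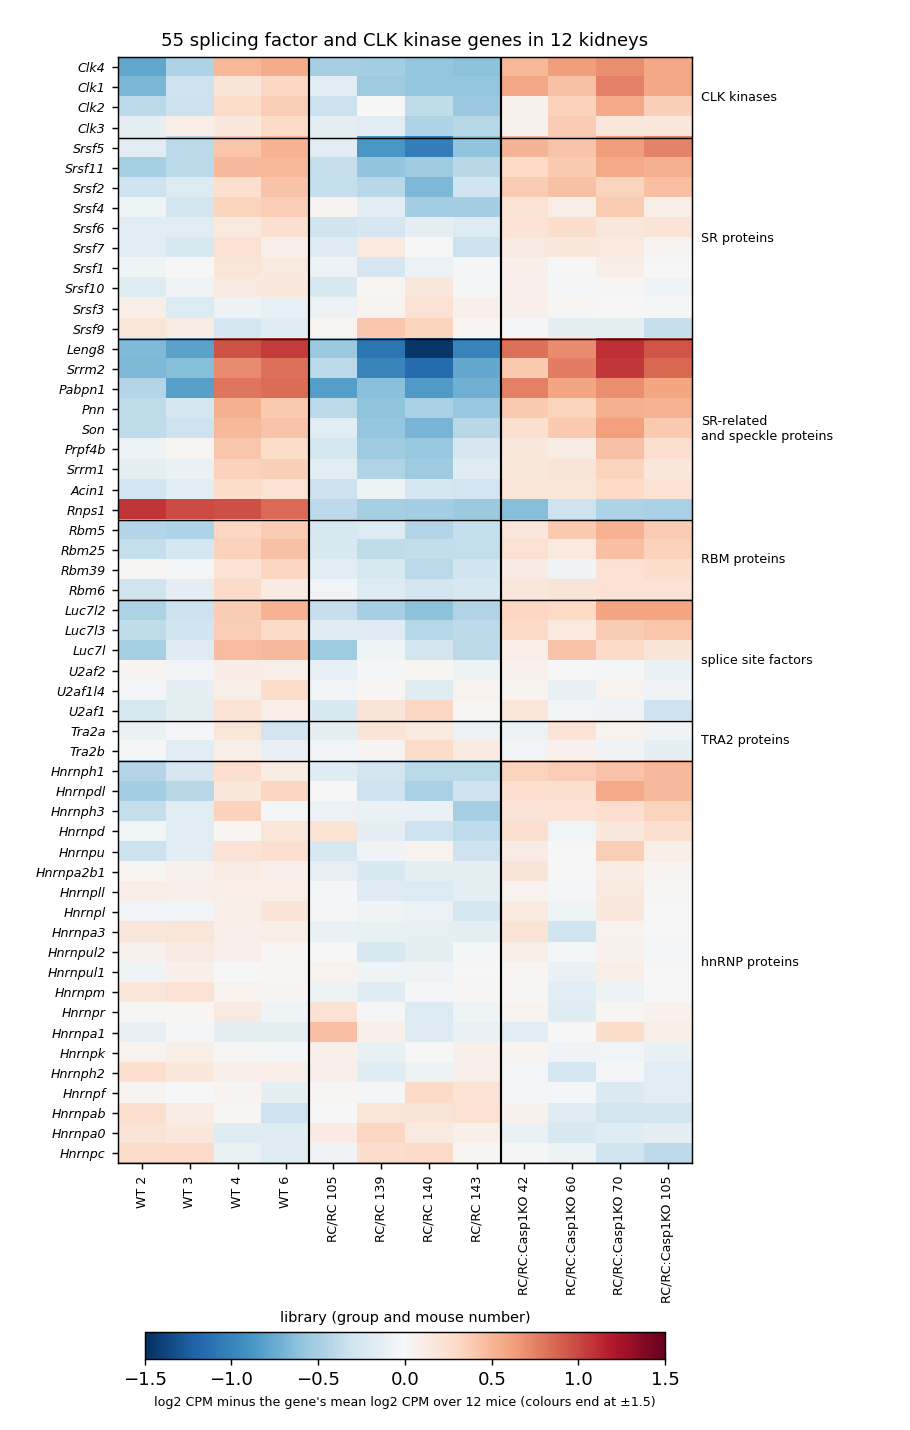
Log2 CPM of each of the 55 tested genes in each mouse, less the gene's mean over the 12 mice (red higher, blue lower, colours end at ±1.5), with genes in rows by role and mice in columns by group. WT mice 2 and 3 share the blue of RC/RC and WT mice 4 and 6 the red of RC/RC:*Casp1*KO for most CLK, speckle and RBM genes, and *Rnps1* is red in all 4 WT mice and blue in all 8 others.

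The 4 CLK kinases, dual-specificity kinases that phosphorylate SR proteins, all rose from RC/RC to RC/RC:*Casp1*KO. *Clk4* was at 24.8, 30.8, 59.9 and 62.6 CPM in the WT mice, 30.05, 29.9, 28.5 and 27.8 in the RC/RC mice and 59.98, 65.7, 68.7 and 63.8 in the RC/RC:*Casp1*KO mice. Its RC/RC values were almost equal and below those of every RC/RC:*Casp1*KO mouse, with WT mice 2 and 3 near the former and WT mice 4 and 6 near the latter. The change was 1.14 ± 0.082 (log2 ± SE), or 2.21-fold. *Clk1* was at 51.1, 66.4, 94.3 and 102 CPM in the WT mice, 73.1, 56.8, 55.03 and 55.2 in the RC/RC mice and 123, 112, 139 and 123 in the RC/RC:*Casp1*KO mice. It rose by 1.04 ± 0.12. For *Clk1* every RC/RC:*Casp1*KO mouse was also above every WT mouse, although the difference from WT, 0.67 ± 0.21, did not pass the threshold. It passed with DESeq2, at 0.64, with a term for Y-linked reads, at 0.71, and without WT mice 4 and 6, at 1.06. *Clk2* and *Clk3* changed less. *Clk2* was at 21.6, 22.9, 34.7 and 36.8 CPM in the WT mice, 22.9, 28.7, 21.96 and 19.4 in the RC/RC mice and 29.9, 36.3, 42.5 and 36.6 in the RC/RC:*Casp1*KO mice, and rose by 0.64 ± 0.14. *Clk3* was at 20.8, 24.7, 25.6 and 28.1 CPM in the WT mice, 20.9, 20.5, 16.7 and 17.1 in the RC/RC mice and 24.002, 29.9, 25.9 and 25.9 in the RC/RC:*Casp1*KO mice, and rose by 0.48 ± 0.11. Neither passed when libraries were scaled by size alone, nor without RC140, Del3_60 or Del3_105. *Clk2* did not pass without Del3_70 either, nor *Clk3* without RC139 or RC143. From WT to RC/RC none of the 4 passed, with log2 differences of -0.39 for *Clk1*, -0.32 for *Clk2*, -0.40 for *Clk3* and -0.62 for *Clk4*. Within the mice with Y-linked reads, 2 in each group, all 4 passed as lower in RC/RC, with *Clk1* at -0.85, *Clk2* at -0.80, *Clk3* at -0.68 and *Clk4* at -1.13. Within the mice without them none passed, with 0.14, 0.21, -0.14 and 0.11. Without WT mice 2 and 3, *Clk1*, *Clk2* and *Clk4* passed as lower too. *Clk4* also passed as lower without WT mouse 2, and *Clk3* with DESeq2 and in the fit over 12 mice.

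**Figure D4:**
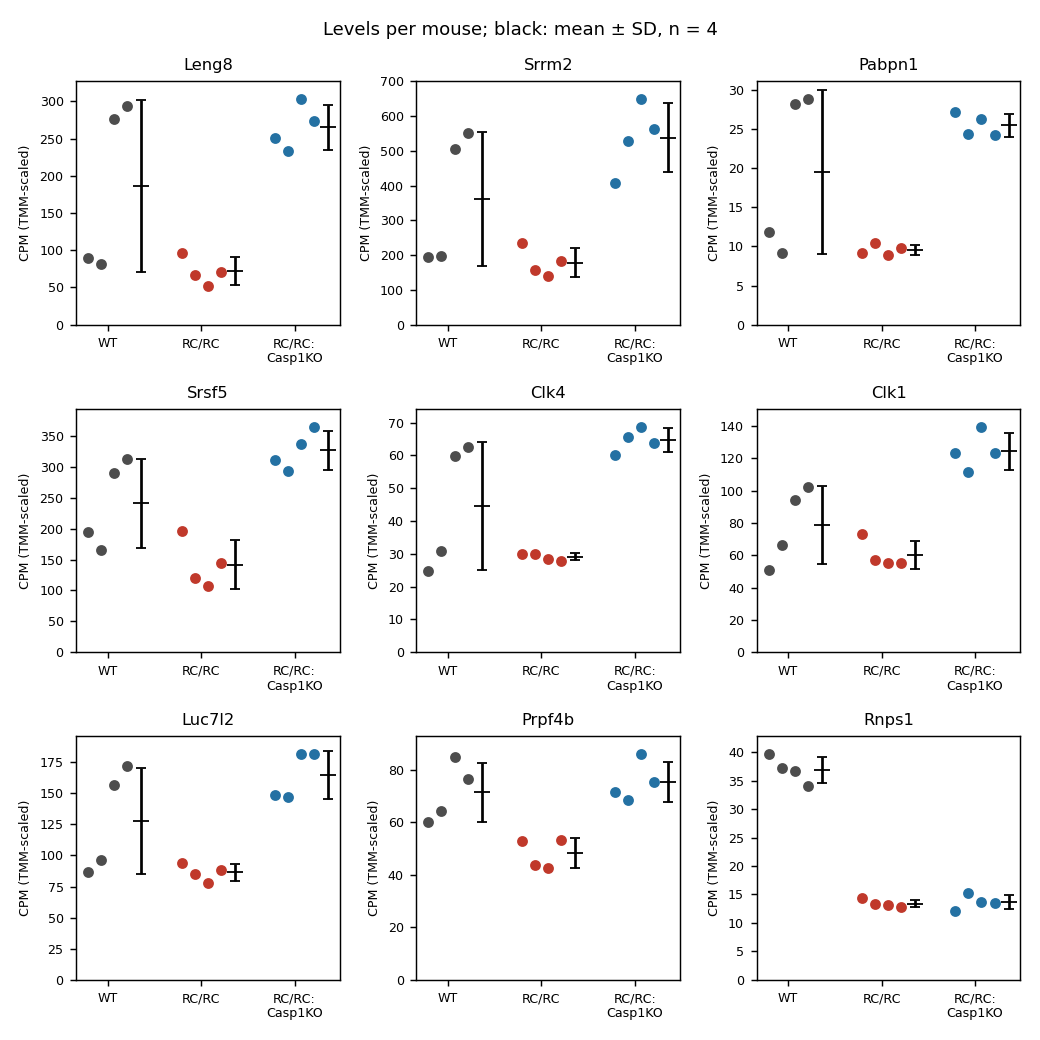
CPM of 9 genes in each mouse (dots, in the order of mouse numbers) with mean ± SD (black, n = 4). *Leng8*, *Srrm2*, *Pabpn1*, *Srsf5*, *Clk4*, *Clk1*, *Luc7l2* and *Prpf4b* are low in RC/RC, high in RC/RC:*Casp1*KO and spread in WT, and *Rnps1* is high in all WT mice and low in all others.

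Of the SR proteins, 4 of the 10 tested rose from RC/RC to RC/RC:*Casp1*KO, and none passed as lower in edgeR's fit of 8 mice. *Srsf5*, which binds exonic enhancers, was at 195, 166, 291 and 313 CPM in the WT mice, 196, 119, 107 and 144 in the RC/RC mice and 312, 293, 338 and 365 in the RC/RC:*Casp1*KO mice. The RC/RC:*Casp1*KO mice were all above the RC/RC mice and WT mice 2 and 3, while WT mice 4 and 6 were close to the lowest RC/RC:*Casp1*KO mice, and the change was 1.199 ± 0.19. *Srsf11*, a larger protein with an arginine-serine domain, was at 85.97, 91.7, 169 and 171 CPM in the WT mice, 95.6, 80.2, 83.3 and 90.4 in the RC/RC mice and 149, 159, 180.0 and 175 in the RC/RC:*Casp1*KO mice, and rose by 0.91 ± 0.11. *Srsf2*, also known as SC35, was at 61.95, 66.9, 91.6 and 103 CPM in the WT mice, 59.98, 57.8, 48.1 and 62.4 in the RC/RC mice and 99.8, 104, 97.004 and 105.04 in the RC/RC:*Casp1*KO mice, and rose by 0.82 ± 0.11. In both genes WT mice 4 and 6 were close to the RC/RC:*Casp1*KO mice. *Srsf6* was at 126, 125, 156 and 166 CPM in the WT mice, 114, 118, 128 and 123 in the RC/RC mice and 161, 168, 158 and 160.2 in the RC/RC:*Casp1*KO mice, and rose by 0.41 ± 0.10, a call lost without RC140, Del3_42, Del3_60 or Del3_105. The other SR genes did not pass in that fit, although *Srsf4* passed as higher and *Srsf9* as lower with DESeq2 and without RC105. *Srsf4* differed by 0.45 ± 0.15 and *Srsf7* by 0.19 ± 0.11, *Srsf1*, the founding member ASF/SF2, by 0.13 ± 0.10, *Srsf3* by -0.057 ± 0.10 and *Srsf9* by -0.38 ± 0.12. *Srsf10*, at -0.0051 ± 0.11, was the tested gene of the 55 nearest to no change, and its sign flipped under DESeq2, RLE or library-size scaling, the fit over 12 mice and the fit on all genes. *Srsf9* was the only SR gene for which every RC/RC:*Casp1*KO mouse was below every RC/RC mouse, with 56.997, 53.996, 42.2 and 44.2 CPM in the WT mice, 50.997, 66.5, 63.4 and 51.1 in the RC/RC mice and 49.1, 45.2, 45.3 and 39.6 in the RC/RC:*Casp1*KO mice. *Srsf12* had at most 0.322 CPM in any mouse.

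The SR-related and speckle proteins held the largest changes. *Leng8*, related to a yeast factor that acts in mRNA export from the nucleus, was at 90.1, 81.8, 277 and 294 CPM in the WT mice, 96.7, 66.6, 51.6 and 70.9 in the RC/RC mice and 251, 233, 303 and 273 in the RC/RC:*Casp1*KO mice. The RC/RC mice and WT mice 2 and 3 lay below 100 CPM and the others above 230 CPM, and the change from RC/RC to RC/RC:*Casp1*KO was 1.88 ± 0.19, or 3.69-fold. *Srrm2*, a scaffold of nuclear speckles, was at 194, 199, 507 and 550.4 CPM in the WT mice, 234, 157, 139 and 183 in the RC/RC mice and 409, 529, 649 and 564 in the RC/RC:*Casp1*KO mice, and rose by 1.58 ± 0.20. *Pabpn1*, the nuclear poly(A)-binding protein, was at 11.9, 9.19, 28.3 and 28.9 CPM in the WT mice, 9.14, 10.4, 8.97 and 9.78 in the RC/RC mice and 27.3, 24.4, 26.3 and 24.3 in the RC/RC:*Casp1*KO mice, and rose by 1.40 ± 0.10. In each of these 3 genes the WT mice formed a low and a high pair with no value between. *Pnn*, pinin, a partner of RNPS1 at the exon junction, was at 47.5, 51.8, 89.6 and 80.98 CPM in the WT mice, 46.9, 40.6, 44.1 and 41.7 in the RC/RC mice and 81.4, 78.01, 89.2 and 88.7 in the RC/RC:*Casp1*KO mice, and rose by 0.95 ± 0.09. *Son*, the other core protein of speckles, was at 169.6, 178, 309 and 296 CPM in the WT mice, 196, 148, 136 and 165 in the RC/RC mice and 262, 289.7, 339 and 290.2 in the RC/RC:*Casp1*KO mice, and rose by 0.86 ± 0.14. *Prpf4b*, a kinase of the spliceosome, was at 60.2, 64.5, 84.9 and 76.5 CPM in the WT mice, 53.02, 43.7, 42.8 and 53.3 in the RC/RC mice and 71.6, 68.4, 85.96 and 75.3 in the RC/RC:*Casp1*KO mice, and rose by 0.63 ± 0.12. For *Pnn* and *Prpf4b* all 4 RC/RC mice were below all 4 WT mice. *Srrm1* rose by 0.53 ± 0.11 and *Acin1*, which joins RNPS1 in the ASAP complex, by 0.44 ± 0.10. *Acin1* did not pass once the trend with gene length was removed, nor without RC140, Del3_42, Del3_60 or Del3_105, and *Srrm1* did not pass without RC139, RC140, Del3_60 or Del3_105.

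All 4 RBM proteins rose from RC/RC to RC/RC:*Casp1*KO, by less. *Rbm5*, a regulator of alternative exons, changed by 0.67 ± 0.10, *Rbm25*, which associates with the U1 snRNP, by 0.62 ± 0.10, *Rbm39*, a partner of U2AF, by 0.41 ± 0.11, and *Rbm6* by 0.38 ± 0.082. *Rbm6* did not pass with library-size scaling, nor without RC139, RC140, Del3_42, Del3_60 or Del3_105. The call of *Rbm39* was less stable. It passed neither with library-size scaling or without the filter on low counts, nor in any fit that left out 1 mouse other than RC105. Its log2 difference moved little, at 0.415 to 0.456 with other settings and 0.363 to 0.470 with single mice left out. *Rbm25* was at 62.6, 67.04, 102 and 109 CPM in the WT mice, 68.6, 61.5, 61.9 and 62.7 in the RC/RC mice and 94.1, 88.9, 109 and 102 in the RC/RC:*Casp1*KO mice. The RC/RC mice were within a narrow range, with WT mice 2 and 3 beside them. The 3 Luc7-like genes, whose yeast counterpart sits in the U1 snRNP at the 5′ splice site, rose as well. *Luc7l2* was at 86.6, 96.3, 157 and 172 CPM in the WT mice, 94.3, 84.9, 78.1 and 88.1 in the RC/RC mice and 149, 147, 181 and 181 in the RC/RC:*Casp1*KO mice, and rose by 0.92 ± 0.12. *Luc7l3* changed by 0.59 ± 0.10 and *Luc7l* by 0.55 ± 0.12, and *Luc7l* lost its call in the fit over 12 mice, with the length trend removed and without RC140, Del3_60 or Del3_105. The 3 U2AF genes, for the factor that reads the 3′ splice site, did not pass, with *U2af2* at 0.025 ± 0.094, *U2af1l4* at 0.014 ± 0.12 and *U2af1* at -0.14 ± 0.15. *Tra2a* and *Tra2b*, SR-like activators, gave -0.01 ± 0.11 and -0.16 ± 0.10.

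Of the 20 hnRNP genes, 3 rose from RC/RC to RC/RC:*Casp1*KO, and 17 did not pass. *Hnrnph1*, which binds runs of G, was at 143, 163, 230.3 and 209 CPM in the WT mice, 171, 160.0, 147 and 146 in the RC/RC mice and 245, 250.4, 260.2 and 272 in the RC/RC:*Casp1*KO mice, and rose by 0.71 ± 0.10. Its RC/RC:*Casp1*KO values were above those of all 8 other mice. *Hnrnpdl* was at 53.2, 56.6, 84.6 and 94.7 CPM in the WT mice, 75.5, 61.1, 53.9 and 60.99 in the RC/RC mice and 89.9, 89.2, 112 and 106 in the RC/RC:*Casp1*KO mice, and rose by 0.65 ± 0.13, a call lost without RC140 or Del3_105. *Hnrnph3* was at 22.8, 25.95, 37.01 and 28.8 CPM in the WT mice, 27.6, 27.2, 27.2 and 20.7 in the RC/RC mice and 33.3, 33.8, 34.8 and 36.9 in the RC/RC:*Casp1*KO mice, and rose by 0.43 ± 0.11, a call lost with library-size scaling, without the filter on low counts, in the fit over 12 mice and without any 1 mouse other than RC105 or RC143. Per length, *Hnrnpa2b1* was the most abundant of the 56 genes in WT and RC/RC:*Casp1*KO and second to *Hnrnpk* in RC/RC, with a mean level of 131 FPKM in WT, 120.3 FPKM in RC/RC and 146 FPKM in RC/RC:*Casp1*KO. It was at 551, 563, 581 and 568 CPM in the WT mice, 495, 462, 492 and 492 in the RC/RC mice and 618, 542, 582 and 557 in the RC/RC:*Casp1*KO mice, with all RC/RC mice below all others, and its difference of 0.23 ± 0.11 did not pass. *Hnrnpk*, at a mean level of 119 FPKM in WT and 126 FPKM in RC/RC, gave a log2 difference of -0.067 ± 0.11. At the other end *Hnrnpc* gave -0.34 ± 0.13, *Hnrnpa0* -0.34 ± 0.10 and *Hnrnpab* -0.32 ± 0.12, and none of these 3 passed. The level in WT of the gene with the largest change, *Leng8*, was 31.5 FPKM and that of *Clk4* 11.9 FPKM.

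Between WT and RC/RC, 2 of the 55 genes passed as lower, *Rnps1* and *Prpf4b*, and 0 as higher, where 3.18% of all genes tested passed as lower and 9.76% as higher. At an unadjusted p under 0.05, 17 were lower and 0 higher, where 12% and 17.3% of all genes were. DESeq2 called 14 lower and 0 higher, against 5.67% and 11%. The median log2 difference was -0.22 over the 55 genes and -0.02 over all. All 4 RC/RC mice were below all 4 WT mice for 10 genes, or 18.2%, as for 7.06% of all genes tested. *Prpf4b* changed by -0.57 ± 0.14 on the log2 scale, and did not pass with library-size scaling, without WT mouse 6, RC139, RC140, or WT mice 4 and 6 together, or within the mice without Y-linked reads. The count was not the same within the mice with Y-linked reads and within those without. Within the former, 2 in each group, 26 passed as lower and 0 as higher, against 7.38% and 6.56% of all genes, and within the latter 1 and 0, against 1.53% and 6.26%. The median log2 difference of the 55 genes was -0.47 in the former and -0.011 in the latter. Tested for a different change in the 2 sets, 0 of the 55 passed (edgeR), with 26 at an unadjusted p under 0.05, against 16.7% of all genes. With a term for Y-linked reads 4 were lower and 0 higher, against 5.93% and 12.3%. Without WT mice 2 and 3 the count was 21 lower and without WT mice 4 and 6 it was 1, fits in which 12.7% and 6.02% of all genes passed in either direction. It was 6 without WT mouse 2, 4 without mouse 3, and 1 without WT mouse 6, RC139 or RC140, fits in which 2.48, 2.14, 1.34, 1.77 and 1.37% of all genes passed as lower. Between WT and RC/RC:*Casp1*KO, 1 of the 55 passed, *Rnps1*, as lower, and 0 as higher, against 0.893% and 1.13% of all genes tested. At an unadjusted p under 0.05, 3 were higher and 2 lower, against 11.8% and 9.99% of all genes. DESeq2 called 1 higher and 2 lower, against 4.37% and 3.21%, and with a term for Y-linked reads 2 and 1, against 4.51% and 3.68%. Within the mice without Y-linked reads 24 genes passed as higher and 6 as lower, against 14.8% and 13.1% of all genes, and within the mice with such reads 0 and 1, against 0.226% and 0.161%. The difference from WT passed as unequal in the 2 sets for 3 genes, *Clk4*, *Leng8* and *Pabpn1*, against 0.437% of all, and was lower in the mice with Y-linked reads in each. At an unadjusted p under 0.05 it was unequal for 28 of the 55 and 15.2% of all. The count was 1 without WT mice 2 and 3, and 21 higher and 1 lower without WT mice 4 and 6, fits in which 0.463% and 11.7% of all genes passed. Both comparisons use the same 4 WT mice.

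*Rnps1*, which encodes an activator of splicing bound near exon junctions, stood apart from the other genes. It was at 39.6, 37.3, 36.7 and 34.1 CPM in the WT mice, 14.3, 13.3, 13.1 and 12.8 in the RC/RC mice and 12.1, 15.2, 13.7 and 13.4 in the RC/RC:*Casp1*KO mice. All 8 mice with the RC allele were below all 4 WT mice, and the 4 WT values lay close together. The difference from WT was -1.46 ± 0.10 in RC/RC and -1.43 ± 0.094 in RC/RC:*Casp1*KO, and that between the 2 RC groups was 0.016 ± 0.11. *Rnps1* passed from WT in every alternative and with each mouse left out. The gene lies at chr17:24414675-24425895 on the plus strand (mm10), 124 kb before the start of *Pkd1*, which carries the knock-in. Other members on chromosome 17 did not share this: *Srrm2* at chr17:23790662-23824741 gave -1.03 ± 0.37 in RC/RC and 0.57 ± 0.36 in RC/RC:*Casp1*KO against WT, and *Luc7l* at chr17:26252910-26285504 gave -0.43 ± 0.22 and 0.13 ± 0.21, none of which passed. Of the 44 genes tested within 500 kb of *Pkd1*, a window set after *Rnps1* had been seen, 10 passed in RC/RC against WT, 4 as higher and 6 as lower, where 12.9% of all genes tested passed in either direction. In RC/RC:*Casp1*KO, 5 passed against WT, 1 as higher and 4 as lower, where 2.03% of all did. The 3 that passed in both were *Rnps1*, *Atp6v0c*, a subunit of the vacuolar proton pump at -1.76 ± 0.14 and -1.68 ± 0.10, and *Eme2* at -1.31 ± 0.24 and -1.14 ± 0.16. *Eme2* overlaps *Spsb3* on the opposite strand and had nearly the same reads in WT and RC/RC, with 129 for each gene in WT mouse 2. Reads may thus have been shared between them. *Spsb3*, at -1.26 ± 0.22 and -0.78 ± 0.18, passed against WT in RC/RC alone. *Pkd1* itself gave 0.056 ± 0.20 and 0.44 ± 0.20 and did not pass. A stretch of 897 bases of the *Rnps1* transcript is 99.6% identical to another annotated gene, Gm35446, so its counts depend on how such reads were assigned. Sequence linked to the RC allele and the allele itself cannot be told apart in these mice.

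**Figure D5:**
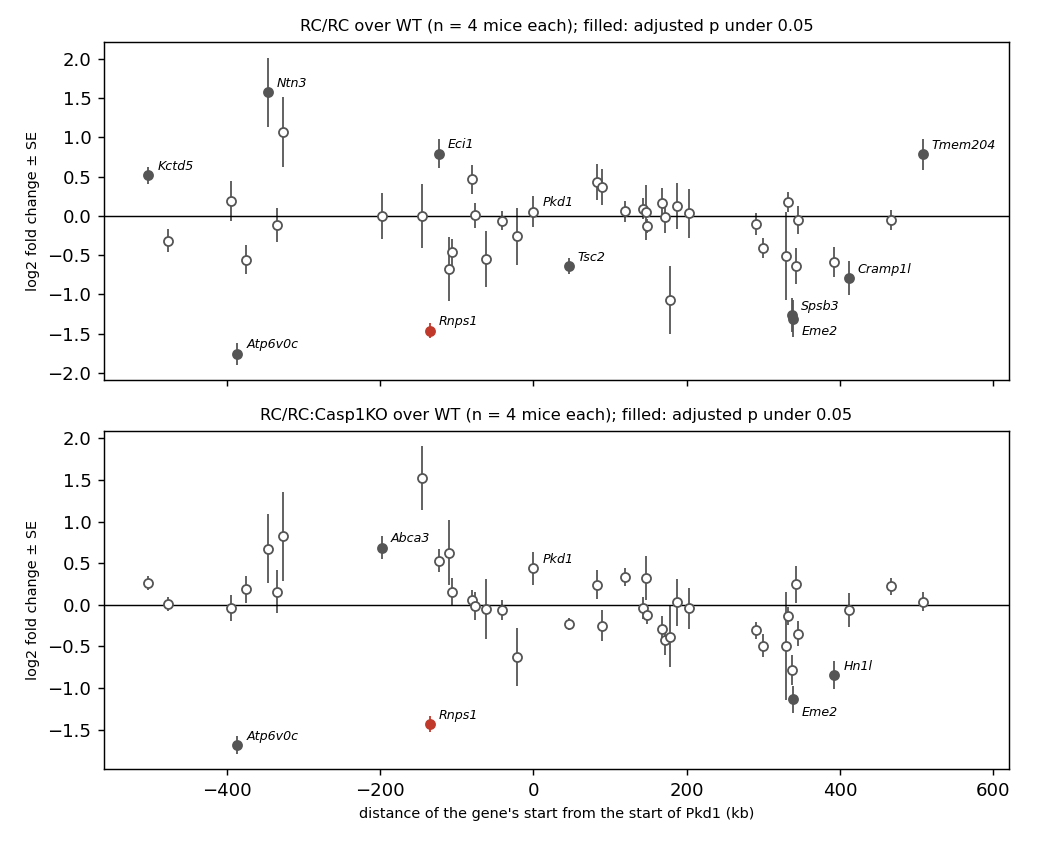
Log2 fold change ± SE from WT to RC/RC (top) and from WT to RC/RC:*Casp1*KO (bottom) for the 44 genes tested within 500 kb of *Pkd1*, against distance from the start of *Pkd1* in kb; filled points have an adjusted p under 0.05, and the same 4 WT mice serve both panels. *Rnps1* (red), *Atp6v0c* and *Eme2* are low in both, and *Pkd1* is near 0 in RC/RC.

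The lists of genes here and below were set by textbook roles, but with earlier results of these data known. Their fold changes, calls and p-values are thus a description as well. Other parts of the splicing machinery were called in both directions. Of 109 such genes tested from RC/RC to RC/RC:*Casp1*KO, 10 (9.17%) passed as higher and 9 (8.26%) as lower, where 7.23% and 4.41% of all genes did, with a median log2 fold change of -0.082. The count of 19 was 27 without RC105, but 5 or 6 without RC139, RC140, Del3_42, Del3_60 or Del3_105 and 9 without Del3_70. Those counts of 5 or 6 held 0 lower genes and that of 9 held 1, so the calls of lower genes below were lost, all or all but 1, when any of these 6 libraries was left out. The summed level of the lists was 5620.4, 5655, 5876 and 5743 CPM in the WT mice, 5401, 5522, 5612 and 5628 in the RC/RC mice and 5767, 5722, 5723 and 5557 in the RC/RC:*Casp1*KO mice. Against WT, 2 of 108 (1.85%) were higher and 1 (0.926%) lower in RC/RC, where 9.76% and 3.18% of all genes were. Without a single mouse 0 to 4 were called, in fits in which 7.51% to 15.7% of all genes passed in either direction. In RC/RC:*Casp1*KO 0 of 109 passed against WT with edgeR, where 1.13% of all genes passed as higher and 0.893% as lower. DESeq2 also called 0, against 4.37% and 3.21% of all genes. At an unadjusted p under 0.05, 6 were higher and 6 lower, against 11.8% and 9.99% of all genes. The genes that passed as lower included small core proteins. Of 14 Sm and LSm ring proteins tested, which encircle the snRNAs, 3 fell and 0 rose from RC/RC to RC/RC:*Casp1*KO, with *Snrpd2* at -0.85 ± 0.20 (edgeR adjusted p = 0.0296). The list summed to 491, 479.8, 418 and 401 CPM in the WT mice, 452, 610.2, 649 and 507 in the RC/RC mice and 465, 395, 386 and 379 in the RC/RC:*Casp1*KO mice. Of the 5 exon junction genes 2 fell, *Eif4a3*, the RNA helicase of the complex, at -0.52 ± 0.13 (edgeR adjusted p = 0.0355) and *Rbm8a* at -0.42 ± 0.12. Among 16 U1 and U2 snRNP proteins 3 fell, led by *Sf3b5* at -0.53 ± 0.14, and 1 rose, *Snrnp70*, the 70K protein of U1, at 0.65 ± 0.10 (edgeR adjusted p = 0.00783). In the tri-snRNP list 2 of 15 rose, *Snrnp200* at 0.54 ± 0.14 and *Prpf8*, and 1 fell, *Nhp2l1*, at -0.44 ± 0.11. In the Prp19 and helicase list 2 of 19 rose, with *Prpf38b* at 0.75 ± 0.11 (edgeR adjusted p = 0.00659) and *Ddx46* at 0.48 ± 0.11. Of 8 other kinases and importers of SR proteins, the SRPK kinases among them, 0 passed from RC/RC to RC/RC:*Casp1*KO with edgeR or DESeq2. Of these 8, 3 were higher and 0 lower at an unadjusted p under 0.05, where 15.3% and 16.4% of all genes were. Of the 10 factors of nonsense-mediated decay, 2 rose from RC/RC to RC/RC:*Casp1*KO, *Upf3b* at 0.74 ± 0.12 and *Smg1* at 0.58 ± 0.12. Among 22 tissue-regulated splicing regulators, 3 rose, with *Tia1*, an RNA-binding protein of stress granules, at 0.96 ± 0.12 (edgeR adjusted p = 0.00339) and *Tial1*, its paralog, at 0.45 ± 0.078, while *Celf2* was higher in RC/RC than in WT at 0.80 ± 0.20.

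The nuclear-retained RNAs moved with the genes described. *Malat1*, a speckle-associated RNA, was at 432, 382, 2598 and 2631 CPM in the WT mice, 822, 396, 338 and 467 in the RC/RC mice and 1447, 1560.4, 1597 and 1479 in the RC/RC:*Casp1*KO mice. *Neat1*, the scaffold of paraspeckles, was at 613, 428, 1488 and 1358 CPM in the WT mice, 436, 422, 310.4 and 409 in the RC/RC mice and 1004, 846, 1137 and 1044 in the RC/RC:*Casp1*KO mice. *Kcnq1ot1*, an imprinted transcript, was at 2.05, 1.86, 12.8 and 11.9 CPM in the WT mice, 3.75, 2.44, 1.93 and 2.14 in the RC/RC mice and 8.43, 7.56, 8.47 and 10.2 in the RC/RC:*Casp1*KO mice. From RC/RC to RC/RC:*Casp1*KO these 3 of the 4 tested rose, by 1.58 ± 0.26, 1.34 ± 0.16 and 1.74 ± 0.23 (edgeR adjusted p = 0.00961, 0.00304 and 0.0041), and *Neat1* was lower in RC/RC than in WT at -1.30 ± 0.37. In all 3 the WT pairs lay far apart, with mice 4 and 6 above every RC/RC and RC/RC:*Casp1*KO mouse. *Meg3* did not pass with edgeR, and *Miat* was at or below 1.22 CPM in each mouse. DESeq2 called 4 genes of this list higher from RC/RC to RC/RC:*Casp1*KO. Of all genes, 7.23% passed as higher with edgeR and 9.61% with DESeq2. Cold-inducible and heat shock genes, which can respond to how tissue is handled, had a summed level over 9 genes of 3055, 3533, 2816 and 2157 CPM in the WT mice, 1978, 3863, 4178 and 3522 in the RC/RC mice and 2204, 2563, 2193 and 1824 in the RC/RC:*Casp1*KO mice, with *Hspa8* the most abundant. RC139, RC140 and RC143 lay above all 4 RC/RC:*Casp1*KO mice, and RC105 lay within their range. From RC/RC to RC/RC:*Casp1*KO 1 of 9 rose, *Cirbp*, at 0.61 ± 0.15, and 1 fell, *Hspb1*, at -1.98 ± 0.44. At an unadjusted p under 0.05, 1 was higher and 5 were lower, against 15.3% and 16.4% of all genes, and the median log2 difference was -0.62 over the 9 and -0.027 over all. Against WT, 4 were higher and 0 lower in RC/RC, against 17.3% and 12%. *Cirbp*, a cold-inducible RNA-binding protein, was at 28.1, 20.8, 49.2 and 57.8 CPM in the WT mice, 39.3, 29.2, 32.8 and 33.2 in the RC/RC mice and 52.8, 37.8, 61.5 and 54.9 in the RC/RC:*Casp1*KO mice, with WT mice 2 and 3 again below mice 4 and 6. *Hspb1* and *Rbm3* were higher in RC/RC than in WT, and *Hsp90aa1* was lower in RC/RC:*Casp1*KO than in WT. Their part in the splicing factor values was not tested.

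The makeup of the kidneys differed between the groups as well. For the counts of markers below, 9.76% of all genes passed as higher and 3.18% as lower in RC/RC against WT. From RC/RC to RC/RC:*Casp1*KO 7.23% and 4.41% of all genes did. Nephron markers, which define the tissue and of which *Slc34a1* was the most abundant, summed to 13881, 15952, 14763 and 16909 CPM in the WT mice, 10309, 7131, 9173 and 11630.3 in the RC/RC mice and 14231, 15876, 13064 and 14046 in the RC/RC:*Casp1*KO mice. In RC/RC, 3 of the 10 were lower than in WT, and from RC/RC to RC/RC:*Casp1*KO 2 rose, with *Lrp2* at 1.52 ± 0.28. *Lrp2*, megalin of the proximal tubule, was at 1532, 1629, 2878 and 3119 CPM in the WT mice, 1519.9, 808, 729.8 and 1305 in the RC/RC mice and 2715, 3942, 2495 and 3409.7 in the RC/RC:*Casp1*KO mice, which is low in WT mice 2 and 3 too. Fibroblast markers summed to 307, 217, 248 and 290.2 CPM in the WT mice, 1164, 1887, 1063 and 811 in the RC/RC mice and 308, 319, 721 and 463 in the RC/RC:*Casp1*KO mice, led by *Col3a1*, and 6 of 6 were higher in RC/RC than in WT while 4 of 6 fell from RC/RC to RC/RC:*Casp1*KO. Leukocyte markers summed to 109.8, 109.6, 116 and 102 CPM in the WT mice, 246, 191, 162 and 165 in the RC/RC mice and 139, 181, 261 and 177 in the RC/RC:*Casp1*KO mice, led by *Csf1r*. Of the 12, 10 were higher in RC/RC than in WT and 0 passed from RC/RC to RC/RC:*Casp1*KO with edgeR or DESeq2. At an unadjusted p under 0.05, 1 was lower in the latter comparison, against 16.4% of all genes. Markers of proliferating cells, led by *Pcna*, summed to 48.1, 52.9, 46.4 and 42.4 CPM in the WT mice, 89.3, 82.5, 71.2 and 69.5 in the RC/RC mice and 36.03, 51.4, 64.1 and 60.001 in the RC/RC:*Casp1*KO mice, with 4 of 5 higher in RC/RC than in WT and 1 lower in RC/RC:*Casp1*KO than in RC/RC. No marker was at 0 in all 12 mice. The nephron, fibroblast and leukocyte sums of WT mice 2 and 3 interleaved with those of mice 4 and 6, while the proliferation sum was slightly higher in mice 2 and 3. The part of cell makeup in the results was not tested.

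The labels of the groups were checked on *Casp1*, which was at 2.05, 1.29, 1.31 and 1.41 CPM in the WT mice, 3.33, 3.86, 4.24 and 2.62 in the RC/RC mice and 0.665, 0.382, 1.06 and 0.667 in the RC/RC:*Casp1*KO mice. All RC/RC:*Casp1*KO mice were below all others, with a log2 difference of -2.35 ± 0.32 from RC/RC (edgeR adjusted p = 0.00514). Of the 56 genes, 21 overlap another gene in the table, 17 of them on the opposite strand, among them *Leng8* with *Leng9*, *Srrm2* with *Tceb2* and *Srsf2* with *Mfsd11* and *Mettl23*. Whether counting used strand is not given in the sources used here, so reads of such pairs may have been shared. *Pabpn1* overlaps *Gm20521*, a gene listed at 0 in all 12 mice. A stretch of at least 100 bases with 95% identity to another annotated gene was found for 44 of the 56 genes, and their counts are uncertain where such reads were assigned to 1 gene or shared. Some of these stretches lie in a gene that overlaps the member, as *Leng9* does *Leng8* and *Edc3* does *Clk3*, and are not copies elsewhere. The share of all genes with such a stretch was not computed. Among the genes that rose are *Luc7l2*, with such stretches in 93 genes, *Rbm25* in 36 and *Srrm1* in 21, the longest being 202, 207 and 292 bases. Others are *Rbm6*, with 2889 bases in *Rbm6-ps1*, and *Srsf5*, with 810 bases in *Gm12966*. Among the hnRNP genes *Hnrnpa3* has 27 and *Hnrnpa1* 11 such pseudogenes. *Clk1*, *Clk4*, *Pnn*, *Rbm5*, *Srsf6* and *Srsf11* have none.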

How the data were processed

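Kidney RNA of 12 mice was made into poly(A) libraries and sequenced by Novogene. The submitters' processing notes name CASAVA 1.8, STAR and mm10, and the counting tool, annotation and strand setting are not given in the sources used here. The authors deposited raw read counts per gene and mouse, together with a gene length, which was used here for FPKM and the length trend. Deposited FPKM values, and the authors' own fold changes and p-values, were not used. Columns name a group and a mouse number, so groups, not individual labelled samples, could be read from them. Columns of unknown sample numbered 0.

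Groups were compared pairwise (8 mice a fit) with edgeR 4.0.16 in R 4.3.3: quasi-likelihood test, TMM, filterByExpr, and Benjamini-Hochberg adjustment over all genes tested. Standard errors are the log2 fold change over the square root of F. CPM used the TMM factors of all 12 libraries, and FPKM the count over gene length and reads counted. The columns name separate mice, and each mouse was a replicate. Differences in each of the 18 pairs of mice of a group exceeded sampling noise (15.7 to 128 chi-square per degree of freedom). That ratio covers counting noise alone and does not decide what counts as a replicate. Alternatives were DESeq2 1.42.0, RLE or library-size scaling, no filter, a fit over 12 mice, removal of the gene length trend (loess, span 0.5), and each mouse left out. Leaving out a WT pair, a model term for Y-linked reads (over 100 reads of 4 genes), fits within the mice with and without them and the test of a different change in the 2 sets were added after the data were seen. Counts were also simulated from dispersions that edgeR estimated, with independent mice and without the pairs of libraries seen here. On these, edgeR kept false calls near its nominal rate, while DESeq2's Wald test exceeded it in every comparison. DESeq2's larger counts are read with that in mind. Such a simulation follows edgeR's own model, so it cannot give the rate of false calls of either tool in the real libraries. Near copies were sought with BLAST 2.17.0 (95% identity over at least 100 bases) among GENCODE transcripts.

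The genes and lists were chosen with earlier results of these data known. Named are all Clk and Srsf genes, the 6 other members that rose most and the 6 that fell most among those called in each comparison, the members not tested and nearest to no change, the called gene with the largest and smallest change in each list, and *Casp1*. Further members and the neighbours of *Pkd1* were named after their values were seen. The value of 1 listed gene is not reported here.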

Additional observations from a re-analysis of the deposited data

Results flagged for a closer look

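In 6 of 165 groups of 4 values, 3 for each tested gene, 1 mouse lay apart from the others by Dixon's test at the 95% level, where chance gives about 1 in 20. *Hnrnph3* was at 20.7 CPM in RC/RC mouse RC143, below the 27.2 to 27.6 CPM of the other 3 mice of its group. *Clk1* was at 73.1 CPM in RC/RC mouse RC105, above the 55.03 to 56.8 CPM of the other 3 mice of its group. *Hnrnpa1* was at 139 CPM in WT mouse 3, above the 127 to 128 CPM of the other 3 mice of its group. *Hnrnpa2b1* was at 462 CPM in RC/RC mouse RC139, below the 492 to 495 CPM of the other 3 mice of its group. *Srsf7* was at 55.8 CPM in RC/RC:*Casp1*KO mouse Del3_105, below the 59.8 to 60.5 CPM of the other 3 mice of its group. *Rbm25* was at 68.6 CPM in RC/RC mouse RC105, above the 61.5 to 62.7 CPM of the other 3 mice of its group. The mice concerned were RC105 for 2 genes and 4 other mice for 1 each. Without RC105, *Clk1* and *Rbm25* still passed from RC/RC to RC/RC:*Casp1*KO. From WT to RC/RC:*Casp1*KO the difference was unequal in mice with and without Y-linked reads for 3 of the 55 genes (edgeR, adjusted p under 0.05 over all genes, 2 mice a group in each set). The log2 difference in the mice with such reads less that in the mice without was -1.60 ± 0.19 for *Leng8*, -1.30 ± 0.18 for *Pabpn1* and -1.15 ± 0.17 for *Clk4*. Between WT and RC/RC it was -2.16 ± 0.30, -1.51 ± 0.24 and -1.24 ± 0.18, and none of the 3 passed.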

How the results depend on the processing

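No paired analysis was possible because the replicate numbers of the labels are not in the count columns and name different mice. The split by Y-linked reads was used as a model term instead. The number of splicing factor and CLK genes called from RC/RC to RC/RC:*Casp1*KO, 26, ranged from 21 to 30 over the 6 other analyses and from 15 to 29 with single mice left out, and that of other splicing genes, 19, from 15 to 24 and from 5 to 27. From WT to RC/RC the 2 called were 14 with DESeq2, 11 in the fit over 12 mice, 1 with library-size scaling, 21 without WT mice 2 and 3, 1 without WT mice 4 and 6, and 1 to 6 with single mice left out. The 3 other splicing genes called were 7 with DESeq2, 9 over 12 mice, 1 without the filter, 10 and 0 without each WT pair, and 0 to 4 with single mice left out. From WT to RC/RC:*Casp1*KO the 1 called was 3 with DESeq2 and 22 without WT mice 4 and 6, and the 0 other splicing genes became 11, with both counts unchanged in every fit without a single mouse. With a term for Y-linked reads the counts of splicing factor and CLK genes and of other splicing genes were 26 and 21 from RC/RC to RC/RC:*Casp1*KO, 4 and 5 from WT to RC/RC and 3 and 0 from WT to RC/RC:*Casp1*KO. Within the mice with Y-linked reads they were 8 and 1, 26 and 10, and 1 and 0, and within the mice without them 6 and 0, 1 and 1, and 30 and 24. Every alternative was fitted except the replicate block. Fewer mice enter the fits within a set or without a pair or a mouse; the cause of the other differences was not tested. Of 448 values refitted with other settings or 1 mouse left out for 32 named genes from RC/RC to RC/RC:*Casp1*KO, 378 kept sign and side of the threshold, 56 lost the call, 4 gained one and 10 changed sign, all of *Srsf10*, at 0.002, 0.0086, 0.0494, 0.0086, 0.0063 with DESeq2, RLE, library size, no filter and 12 mice, and between -0.0862 and 0.0551 with single mice left out. From WT to RC/RC the values that changed sign (log2) were *Srsf10* 0.0634, *Srsf7* 0.0297 with library size, *Srsf10* 0.0038 with the length trend removed and *Clk1* 0.0021, *Clk2* 0.0332, *Srsf10* 0.0827, *Clk4* 0.0373, *Srsf7* 0.0924 without WT mice 4 and 6, and with single mice left out *Srsf10* -0.0917 to 0.0215 and *Srsf7* -0.173 to 0.0037. From WT to RC/RC:*Casp1*KO they were *Srsf1* 0.11, *Srsf10* 0.11 with library size, *Clk3* -0.022, *Srsf11* -0.0348, *Srsf4* -0.16, *Srsf7* -0.0302, *Srsf9* 0.0514 without WT mice 2 and 3 and *Srsf1* 0.0584, *Srsf10* 0.10 without mice 4 and 6, and with single mice left out *Srsf4* -0.0262 to 0.181, *Srsf1* -0.0646 to 0.0023 and *Srsf10* -0.0794 to 0.0297. Within the mice without Y-linked reads the sign changed for *Srsf3* 0.026, *Srsf10* 0.06 from RC/RC to RC/RC:*Casp1*KO, *Clk1* 0.14, *Clk2* 0.21, *Srsf4* 0.11, *Srsf10* 0.0172, *Clk4* 0.11, *Srsf7* 0.19 from WT to RC/RC and *Srsf1* 0.0329, *Srsf10* 0.0682 from WT to RC/RC:*Casp1*KO, and within the mice with them for *Srsf6* -0.0106, *Clk3* -0.10, *Srsf11* -0.0414, *Srsf4* -0.0541, *Srsf7* -0.0053, *Srsf9* 0.13 in the last comparison. None of these genes was called in edgeR's fit of 8 mice of the comparison in which it changed sign. Library-size scaling moved the median log2 difference of all genes from 0.012 to 0.14 from WT to RC/RC:*Casp1*KO. At this depth, genes such as *Srsf12* had too few reads to compare.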
